A study of Schizosaccharomyces pombe with 9 samples.

Results

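The genes described here are 156 fission yeast genes whose transcripts were higher in TetR-Mit1-K587A cells and lower in TetR-Mit1 clr4oe cells than in TetR-Mit1 cells. They were chosen by their levels. CPM, the counts scaled to a common library total, were averaged within each genotype, and genes averaging at least 5 CPM over the 8 libraries were kept. For each gene the log2 ratio of K587A over TetR-Mit1 and that of clr4oe over TetR-Mit1 were taken, each minus its median over genes. Genes at or above 0.3 in the first and at or below -0.3 in the second were retained. The table holds 4915 genes. The floor of 5 CPM left 4818, of which 8.45% met the difference in K587A, 20.7% that in clr4oe and 164 (3.4%) both. Of these, 8 whose IDs carry clone prefixes from chromosome ends and from around ura4 were dropped, and 156 remained. Both differences therefore belong to the choice of the genes and are given as a description, without a test.

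Polyadenylated RNA was sequenced from Schizosaccharomyces pombe growing exponentially in YEA, a rich medium, at 32 °C. The K587A group (3 libraries) carries TetR-Mit1 with the substitution K587A, the clr4oe group (2 libraries analysed here) carries TetR-Mit1 with the element labelled clr4oe, and the last group (3 libraries) carries TetR-Mit1 alone. TetR-Mit1, the Tet repressor joined to the chromatin remodeler Mit1, is thus present in all groups, and no strain without it was among the samples. The labels give 1 strain number per genotype, which means that effects of strain and of genotype cannot be told apart. Nothing says that replicates came from separate cultures, and p-values measure only the spread between these samples. Library totals ran from 10367168 to 15920802 counts. The libraries matched their label for clr4, which averaged 278.7 CPM in clr4oe, against 56.1 CPM in TetR-Mit1. The CPM of clr4 and mit1 given here were scaled by the trimmed mean of M-values (TMM). The targeted base change of K587A cannot be read from gene counts. Transcript of mit1 averaged 533.7 CPM in K587A and 350.2 CPM in clr4oe, against 386.1 CPM in TetR-Mit1, and neither mit1 nor clr4 is among the 156.

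Mit1 is the remodeling subunit of SHREC, a complex that holds heterochromatin silent, and Clr4 is the methyltransferase that places the histone mark of heterochromatin. In fission yeast the ribosomal protein genes are transcribed at high rates in growing cells, many from promoters with a short element named the HomolD box. MBF is a transcription factor that switches on DNA replication genes at the start of S phase, and Hsf1 drives chaperone genes. Glucanases digest the septum so that daughter cells can part.

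The set took 3.24% of all genes past the floor. Its largest group was that of the cytosolic ribosomal proteins, with 69 of the 133 listed genes (51.9%), and 87 genes lay outside that list. Smaller groups were 8 of 29 tested genes of mitosis and cell separation (27.6%), 6 of 14 chaperone genes (42.9%) and 5 of 14 MBF targets (35.7%). Another 2 genes came from a list of 55 ribosome biogenesis factors (3.64%), which is near the share over all genes. Iron uptake gave 1 gene, phosphate and thiamine gave 1, and 12 other lists gave none. The remaining genes are on none of the lists. Over all 156 the median difference was 0.42 in K587A (0.31 to 1.04) and -0.51 in clr4oe (-1.51 to -0.30), both on the median-centred log2 scale. Most differences were below 2-fold, since 2 genes reached 1 in K587A and 10 genes reached -1 in clr4oe. The difference was larger in clr4oe than in K587A for 104 of the 156. Of all 4818 genes past the floor, 14 reached 1 in K587A and 133 reached -1 in clr4oe. Larger differences in clr4oe were thus not particular to the set.

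**Figure D1:**
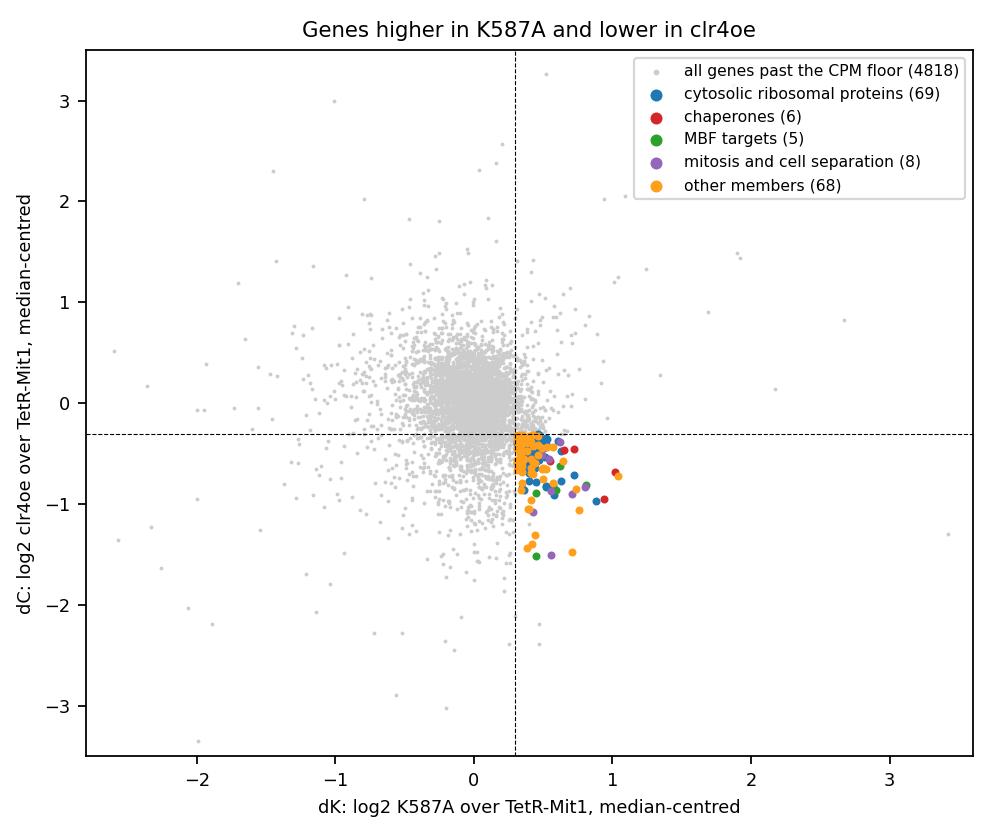
Median-centred log2 ratio of K587A over TetR-Mit1 (x axis) against that of clr4oe over TetR-Mit1 (y axis) for 4818 genes, with the 156 chosen genes coloured by list and dashed lines at 0.3 and -0.3. The chosen genes fill the lower right corner by construction, with most of them close to the corner (medians 0.42 and -0.51).

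Replicates of a genotype lay close together. The orders that follow use TMM-normalised CPM. Every K587A library was above every TetR-Mit1 library for 154 of the 156 genes (30.5% of all genes past the floor), trs31 being an exception. Every clr4oe library was below every TetR-Mit1 library for all 156 (38.3% of all genes past the floor), and both orders held for 154 (13.6%). The rule fixed these directions, so nothing is read from the counts. Separation of the groups in single genes of the set, given below, is likewise a description from which nothing is read. By share of all counts, the 156 genes held 15.1%, 14.7% and 14.8% in K587A and 7.82% and 7.88% in clr4oe, against 11.8%, 11.8% and 11.5% in TetR-Mit1. The 69 ribosomal protein genes held 9.4%, 8.95% and 9.03% in K587A and 5.02% and 5.1% in clr4oe, against 7.5%, 7.56% and 7.26% in TetR-Mit1. The other 87 genes held 5.68%, 5.78% and 5.76% in K587A and 2.8% and 2.78% in clr4oe, against 4.34%, 4.28% and 4.27% in TetR-Mit1. Both parts of the set took the largest share of counts in K587A and the smallest in clr4oe, with no overlap between genotypes. This order follows from the choice of the genes, so nothing is read from the shares.

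**Figure D2:**
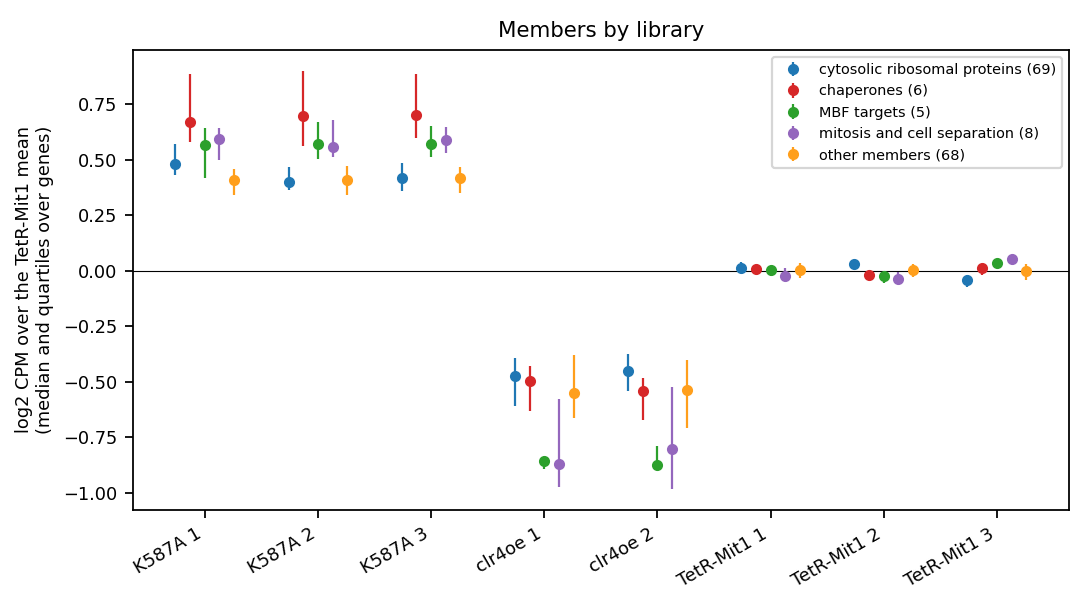
Log2 of each library's CPM (scaled by the trimmed mean of M-values, TMM) over the TetR-Mit1 mean, as the median (point) and quartiles (bar) over the genes of each group, by library. Ribosomal protein genes lie at 0.48, 0.40 and 0.42 in K587A and at -0.47 and -0.45 in clr4oe, while MBF targets lie at 0.57 in each K587A library and at -0.86 and -0.88 in clr4oe.

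The ribosomal protein genes in the set code for 39 large-subunit proteins (of 70 listed), 24 small-subunit proteins (of 55) and 5 proteins of the stalk (of 7), with ubi3, a fusion of ubiquitin to a ribosomal protein, as the last. The large-subunit genes were rpl1002, rpl1101, rpl1102, rpl15, rpl1502, rpl1601, rpl1603, rpl1801, rpl1802, rpl1902, rpl2001, rpl2101, rpl22, rpl2301, rpl2302, rpl2401, rpl2502, rpl2701, rpl2702, rpl2801, rpl29, rpl3001, rpl3002, rpl301, rpl302, rpl31, rpl3201, rpl3202, rpl3601, rpl3702, rpl3801, rpl3802, rpl401, rpl402, rpl4301, rpl501, rpl502, rpl702 and rpl802. The small-subunit genes were rps001, rps002, rps101, rps1402, rps1501, rps1502, rps1601, rps1602, rps1701, rps1902, rps2, rps2201, rps2202, rps23, rps2302, rps2402, rps2501, rps2601, rps3, rps402, rps502, rps601, rps602 and rps902, and the stalk genes were rpp0, rpp101, rpp102, rpp103 and rpp203. Both rpl35A01 and rpl44, ribosomal protein genes left out of the list, were also in the set. Values from here on are TMM-normalised CPM.

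The promoter stretches of 3 of these genes are shown because the HomolD box recurs at nearly the same distance from their annotated start. Each runs 110 bases on the gene's own strand up to the base before the start, and capitals mark the HomolD box, CAGTCACA or its reverse complement TGTGACTG.
rpl3002: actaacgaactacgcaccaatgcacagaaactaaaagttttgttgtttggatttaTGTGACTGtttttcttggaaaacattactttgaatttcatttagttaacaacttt
rps2202: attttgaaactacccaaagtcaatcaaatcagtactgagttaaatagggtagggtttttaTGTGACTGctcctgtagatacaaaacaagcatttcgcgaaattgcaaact
rpl301: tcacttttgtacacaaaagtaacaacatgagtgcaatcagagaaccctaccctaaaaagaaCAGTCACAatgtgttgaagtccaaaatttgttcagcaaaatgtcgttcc

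Large-subunit gene rpl3002 had 120.8, 125.3 and 127.4 CPM in K587A and 31.0 and 37.8 CPM in clr4oe, against 68.2, 71.0 and 63.3 CPM in TetR-Mit1. Its log2 differences, 0.88 and -0.97, were the widest of the ribosomal protein genes when the smaller of the 2 differences is compared. The other copy of this gene, rpl3001, differed less, with 1268.2, 1313.9 and 1231.6 CPM in K587A and 769.5 and 786.3 CPM in clr4oe, against 1058.8, 1006.3 and 912.6 CPM in TetR-Mit1. The coding sequences of rpl3001 and rpl3002 are 68.6% identical. In both copies the groups stayed apart. Per kilobase of transcript, the mean level over all libraries was 143.7 CPM for rpl3002 and 1911.0 CPM for rpl3001.

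Small-subunit gene rps2202 had 540.0, 520.7 and 523.4 CPM in K587A and 184.8 and 204.0 CPM in clr4oe, against 305.7, 329.8 and 322.7 CPM in TetR-Mit1. Its copy rps2201 had 1203.1, 1083.7 and 1090.8 CPM in K587A and 581.6 and 705.8 CPM in clr4oe, against 881.0, 900.7 and 854.7 CPM in TetR-Mit1. The log2 differences were 0.72 and -0.71 for rps2202 and 0.35 and -0.45 for rps2201. Per kilobase, the mean level was 562.0 CPM for rps2202 and 2001.5 CPM for rps2201. The coding sequences of rps2201 and rps2202 are 92.4% identical, so how reads were divided between them is uncertain.

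Stalk protein gene rpp0, whose product anchors the lateral stalk of the large subunit, had 3078.0, 2829.7 and 3059.8 CPM in K587A and 1127.9 and 1118.3 CPM in clr4oe, against 1910.0, 1948.3 and 1902.7 CPM in TetR-Mit1. Large-subunit gene rpl1002 had 1339.4, 1212.4 and 1280.5 CPM in K587A and 440.9 and 463.6 CPM in clr4oe, against 836.9, 883.2 and 830.9 CPM in TetR-Mit1. Large-subunit gene rpl22 had 1794.9, 1708.5 and 1677.3 CPM in K587A and 649.9 and 674.6 CPM in clr4oe, against 1200.7, 1181.3 and 1099.8 CPM in TetR-Mit1. All 3 were low in clr4oe by more than they were high in K587A, with log2 differences of 0.63 and -0.77 for rpp0, 0.58 and -0.91 for rpl1002 and 0.57 and -0.81 for rpl22. Counts of rpl1002 are uncertain, since its coding sequence is 97.9% identical to that of rpl1001.

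Large-subunit gene rpl301 had 1690.5, 1571.4 and 1618.2 CPM in K587A and 643.5 and 623.3 CPM in clr4oe, against 1127.3, 1130.9 and 1121.2 CPM in TetR-Mit1. Its copy rpl302, 96.3% identical over the coding sequence, was in the set too, with differences of 0.40 and -0.69, against 0.52 and -0.83 for rpl301. In this pair the copy with the lower level per kilobase (rpl302, 516.1 CPM, against 955.7 CPM for rpl301) had the narrower differences, unlike the rpl30 and rps22 pairs. The small-subunit gene rps2 had the highest level per kilobase of the set, 4478.8 CPM as a mean over all libraries. It had 5558.8, 4886.6 and 5050.5 CPM in K587A and 2706.0 and 2674.7 CPM in clr4oe, against 3776.8, 3862.3 and 3803.4 CPM in TetR-Mit1. No clr4oe library reached a TetR-Mit1 library in any of these genes.

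Many ribosomal proteins are encoded by several gene copies, and copies did not always enter together. Of 54 families with more than 1 copy, 18 had every copy in the set, 24 had some and 12 had none. Among the 69 genes, 62 have another copy and 17 have one with at least 90% coding identity, and the counts of those 17 are uncertain.

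Of the other 64 ribosomal protein genes, rpl2402, rpl35 and rpl902 met both differences but were among the 8 dropped for their clone prefix, and the rest missed a threshold. In edgeR's quasi-likelihood test at an adjusted p under 0.05, all 64 were higher in K587A (27.3% of all tested genes were higher, 25.0% lower and 52.3% either way), with a median log2 fold change of 0.39 (all tested genes 0.006). In clr4oe 51 of the 64 were lower and 1 was higher (33.0% of all tested genes were lower, 32.1% higher and 65.1% either), with a median of -0.22 (all tested genes -0.003). These shares leave out the 69 genes that the rule took. The largest fall in clr4oe among them was that of rpl3402, with 87.5 ± 0.0815 CPM in clr4oe (SD, n = 2), against 195.4 ± 5.88 CPM in TetR-Mit1 (SD, n = 3), which is -1.16 ± 0.05 (SE) as log2 fold change. The gene that rose in clr4oe was rps1401, with 183.9 ± 5.36 CPM in K587A (n = 3) and 51.1 ± 1.66 CPM in clr4oe (n = 2), against 28.8 ± 2.11 CPM in TetR-Mit1 (n = 3). Its log2 fold changes were 2.67 ± 0.06 in K587A (adjusted p = 1.51e-22, edgeR) and 0.82 ± 0.07 in clr4oe (adjusted p = 1.15e-10, edgeR). The counts of rps1401 are uncertain, since it overlaps aar2 and is 93.6% identical to rps1402 over the coding sequence. The smallest rise in K587A was that of rpp202, at 0.11 ± 0.04 (adjusted p = 0.0445, edgeR).

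Of the 55 ribosome biogenesis factors, the set took gar1 and rlp7. Gar1, a protein of the particles that convert uridine to pseudouridine in ribosomal RNA, had 558.8, 502.8 and 522.6 CPM in K587A and 211.3 and 197.2 CPM in clr4oe, against 337.4, 376.8 and 350.2 CPM in TetR-Mit1. In rlp7, coding for a protein that resembles a ribosomal protein and acts in assembly of the large subunit in budding yeast, 228.0, 218.1 and 217.3 CPM were found in K587A and 64.8 and 65.9 CPM in clr4oe, against 157.6, 158.2 and 171.7 CPM in TetR-Mit1. Neither gene's groups overlapped. Of the other 53 factors all 53 were lower in clr4oe (33.0% of all tested genes), with a median log2 fold change of -0.89 (edgeR, adjusted p under 0.05). In K587A 21 were higher (27.3% of all tested genes) and 5 lower (25.0%), with a median of 0.06. Over the whole list of 55 the genes that passed in K587A numbered 28, and 18 without TetR-Mit1 replicate 1. The 53 factors lower in clr4oe included has1, an RNA helicase (-1.47 ± 0.06 in clr4oe), and dbp3, another helicase (-1.73 ± 0.05 in clr4oe). Factors for ribosomal RNA processing outside that list were also in the set, namely rpf1, mis3, rrp9, utp23, las1 and mpp6, with median differences of 0.37 and -0.69. Translation factors added 7 genes with medians of 0.35 and -0.59, among them tif5 (eIF5), sce3 (eIF4B), prs1 (prolyl-tRNA ligase), tma19 and cpc2, the fission yeast homolog of RACK1. Of these cpc2 had the highest CPM, with 4595.0, 4474.7 and 4685.4 CPM in K587A and 2395.5 and 2493.7 CPM in clr4oe, against 3814.0, 3668.3 and 3565.8 CPM in TetR-Mit1.

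Among the list groups of more than 1 gene, chaperone genes had the widest median difference in K587A, 0.68, with -0.52 in clr4oe. The stretches shown here, read as above and ending 3 bases (hsp90) and 24 bases (aha1) before the annotated start, hold the inverted pair of units to which Hsf1 is known to bind, GAANNTTC, in capitals.
hsp90: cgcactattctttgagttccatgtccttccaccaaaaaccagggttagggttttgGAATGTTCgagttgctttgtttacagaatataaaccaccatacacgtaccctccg
aha1: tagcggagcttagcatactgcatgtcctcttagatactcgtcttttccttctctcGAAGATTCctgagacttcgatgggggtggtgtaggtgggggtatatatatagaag

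Ssa2, a cytosolic Hsp70, was the gene farthest inside the rule and the one with the highest CPM of the set, with 9975.2, 10030.7 and 9998.5 CPM in K587A and 2724.6 and 2654.9 CPM in clr4oe, against 5308.2, 5181.2 and 5096.2 CPM in TetR-Mit1. The hsp90 gene had 6030.7, 6154.7 and 6198.3 CPM in K587A and 1903.2 and 1852.8 CPM in clr4oe, against 3036.4, 2946.3 and 3054.0 CPM in TetR-Mit1. In both genes replicates lay close together and the 3 genotypes far apart, with log2 differences of 0.94 and -0.95 for ssa2 and 1.02 and -0.68 for hsp90. Partners of Hsp90 were in the set too. Sti1, which links Hsp70 to Hsp90, had 1025.9, 1043.9 and 1013.3 CPM in K587A and 464.0 and 441.5 CPM in clr4oe, against 624.1, 608.5 and 631.4 CPM in TetR-Mit1. Aha1, which stimulates the ATPase of Hsp90, had 404.5, 395.2 and 402.5 CPM in K587A and 186.4 and 180.5 CPM in clr4oe, against 283.8, 268.3 and 266.0 CPM in TetR-Mit1. The cyclophilin wis2, not on the list, had the largest difference of the set in K587A (1.04). It had 749.2, 780.7 and 779.8 CPM in K587A and 226.2 and 223.4 CPM in clr4oe, against 379.4, 364.6 and 372.0 CPM in TetR-Mit1. Pss1, an Hsp110-type chaperone, and bip1, the Hsp70 of the endoplasmic reticulum, completed the list's share, with differences of 0.65 and -0.46 for pss1 and 0.41 and -0.40 for bip1. The level of pss1 was 2200.1, 2251.8 and 2333.0 CPM in K587A and 1055.3 and 1029.6 CPM in clr4oe, against 1433.7, 1440.7 and 1438.6 CPM in TetR-Mit1. That of bip1 was 1666.8, 1671.1 and 1729.5 CPM in K587A and 975.0 and 944.5 CPM in clr4oe, against 1243.4, 1255.0 and 1301.0 CPM in TetR-Mit1. Bip1 had the narrowest differences of the 6 in both directions.

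Of the other 8 chaperone genes 6 were higher in K587A (27.3% of all tested genes), while hsf1 was lower (25.0% of all tested genes), at -0.27 ± 0.04 (adjusted p = 5.3e-07, edgeR). In clr4oe 4 of the 8 were lower (33.0% of all tested genes) and 2 were higher (32.1%), and with 8 genes nothing is read from these counts. Both hsp104, a disaggregase, and ssa1, another Hsp70, rose in the 2 comparisons: hsp104 by 0.44 ± 0.04 in K587A and 0.56 ± 0.05 in clr4oe, and ssa1 by 0.39 ± 0.04 in K587A and 0.56 ± 0.04 in clr4oe. The Hsp90 co-chaperone wos2 rose by 0.97 ± 0.04 in K587A and was lower in clr4oe by a smaller amount (-0.16 ± 0.04, adjusted p = 0.0014, edgeR).

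Replication genes driven by MBF were represented by cdc22, cdt1, tos4, mik1 and cdc18. The stretches of 3 of them, ending 1 base (cdc22), 23 bases (cdt1) and 25 bases (tos4) before the annotated start, are shown because they hold ACGCGT, the core of the element bound by MBF, in capitals.
cdc22: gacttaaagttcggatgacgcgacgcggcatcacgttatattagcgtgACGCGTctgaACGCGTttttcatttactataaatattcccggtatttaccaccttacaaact
cdt1: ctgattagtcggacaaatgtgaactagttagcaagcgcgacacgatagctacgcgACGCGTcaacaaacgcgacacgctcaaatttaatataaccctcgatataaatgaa
tos4: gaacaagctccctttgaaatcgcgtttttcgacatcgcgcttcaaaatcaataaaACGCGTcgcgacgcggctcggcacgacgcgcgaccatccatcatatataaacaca

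The ribonucleotide reductase gene cdc22 had 834.0, 854.5 and 866.6 CPM in K587A and 269.9 and 279.1 CPM in clr4oe, against 474.7, 478.1 and 494.7 CPM in TetR-Mit1. Its differences, 0.81 and -0.81, were alike in size. The origin licensing factor cdt1 had 45.9, 49.3 and 48.7 CPM in K587A and 18.8 and 21.5 CPM in clr4oe, against 31.8, 29.2 and 32.0 CPM in TetR-Mit1. Tos4, a forkhead-associated domain protein, had 289.8, 275.7 and 276.0 CPM in K587A and 102.4 and 101.1 CPM in clr4oe, against 186.5, 182.4 and 187.9 CPM in TetR-Mit1. The groups were separate in these 3 genes. Mik1, a kinase that holds back mitosis and whose gene overlaps ssb1, had the largest fall of the set in clr4oe (-1.51). It had 54.4, 55.4 and 58.0 CPM in K587A and 14.0 and 14.6 CPM in clr4oe, against 38.4, 39.1 and 44.6 CPM in TetR-Mit1. Cdc18, the partner of Cdt1 in licensing, had 54.6, 58.2 and 56.1 CPM in K587A and 22.1 and 22.1 CPM in clr4oe, against 41.2, 41.4 and 40.7 CPM in TetR-Mit1. Outside the list, dut1, the enzyme that clears dUTP, had 102.4, 103.5 and 107.4 CPM in K587A and 34.5 and 34.2 CPM in clr4oe, against 67.1, 63.3 and 55.8 CPM in TetR-Mit1.

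Of the other 9 MBF targets, 5 passed as higher in K587A (27.3% of all tested genes), and in clr4oe 6 passed as lower (33.0%) and 1 as higher (32.1%) (edgeR, adjusted p under 0.05). Examples were cdt2, which directs Cdt1 and other proteins to destruction (0.29 ± 0.06 in K587A and -0.43 ± 0.07 in clr4oe), and yox1, a repressor of MBF (0.29 ± 0.09 in K587A and -0.49 ± 0.11 in clr4oe). The exception in clr4oe was suc22, the small subunit of ribonucleotide reductase, at 0.48 ± 0.04 in clr4oe (adjusted p = 3.34e-10, edgeR) and -0.02 ± 0.04 in K587A (adjusted p = 0.702, edgeR). The partners cdc22 and suc22 thus stood on opposite sides of TetR-Mit1 in clr4oe. Among 10 core histone genes, which are also expressed in S phase, none was in the set. In K587A 9 of them were higher (27.3% of all tested genes) and 1 lower (25.0%), with a median of 0.26. In clr4oe 8 were higher (32.1%) and 1 lower (33.0%), with a median of 0.29. The gene lower in both was hht2.

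Genes of mitosis and cell separation in the set included adg1, adg2, adg3, eng1 and agn1, together with slp1, the activator of the anaphase-promoting complex, and mid2, a septin-binding protein. Adg1, a cell-surface glycoprotein, had 291.0, 282.4 and 290.3 CPM in K587A and 84.6 and 99.4 CPM in clr4oe, against 165.1, 157.5 and 169.3 CPM in TetR-Mit1. Another surface protein gene, adg2, had 563.8, 598.1 and 569.6 CPM in K587A and 190.9 and 184.7 CPM in clr4oe, against 341.8, 341.7 and 372.5 CPM in TetR-Mit1. For eng1, the endoglucanase that digests the primary septum, 170.4, 159.2 and 160.9 CPM were found in K587A and 39.7 and 38.4 CPM in clr4oe, against 101.4, 114.3 and 115.4 CPM in TetR-Mit1. The groups did not overlap in these 3, and eng1 had the lowest clr4oe difference of the 3 (-1.5). Agn1, the glucanase that digests the cell wall around the septum, had 204.2, 207.7 and 206.8 CPM in K587A and 74.3 and 69.2 CPM in clr4oe, against 154.0, 153.0 and 149.5 CPM in TetR-Mit1. Outside the list, cts2, coding for a chitinase-like protein, had 265.0, 288.8 and 287.6 CPM in K587A and 79.0 and 78.4 CPM in clr4oe, against 162.1, 155.3 and 177.3 CPM in TetR-Mit1. Slp1 had 120.9, 121.0 and 117.5 CPM in K587A and 44.4 and 43.7 CPM in clr4oe, against 81.8, 78.3 and 82.0 CPM in TetR-Mit1. Like the glucanase genes, cts2 and slp1 showed no overlap between groups. Adg3, a beta-glucosidase, had 406.7, 413.3 and 408.6 CPM in K587A and 205.2 and 199.7 CPM in clr4oe, against 281.8, 288.3 and 297.9 CPM in TetR-Mit1. Mid2 had 609.4, 631.0 and 623.1 CPM in K587A and 308.2 and 308.6 CPM in clr4oe, against 398.7, 388.8 and 418.2 CPM in TetR-Mit1. Unlike eng1, mid2 differed more in K587A (0.62) than in clr4oe (-0.38).

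The other 21 tested genes of mitosis and cell separation gave 7 above TetR-Mit1 in K587A (27.3% of all tested genes) and 9 below it (25.0%). In clr4oe 2 were above (32.1%) and 13 below (33.0%). Glucan synthase genes of the septum were among them. The linear glucan synthase bgs1 was at -0.14 ± 0.04 in K587A and -0.06 ± 0.04 in clr4oe (adjusted p = 0.222, edgeR), and bgs4 was at 0.11 ± 0.03 in K587A and -0.24 ± 0.04 in clr4oe. The forkhead factor gene sep1 was at -0.13 ± 0.05 in K587A and 0.48 ± 0.05 in clr4oe (adjusted p = 3.36e-09, edgeR).

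**Figure D3:**
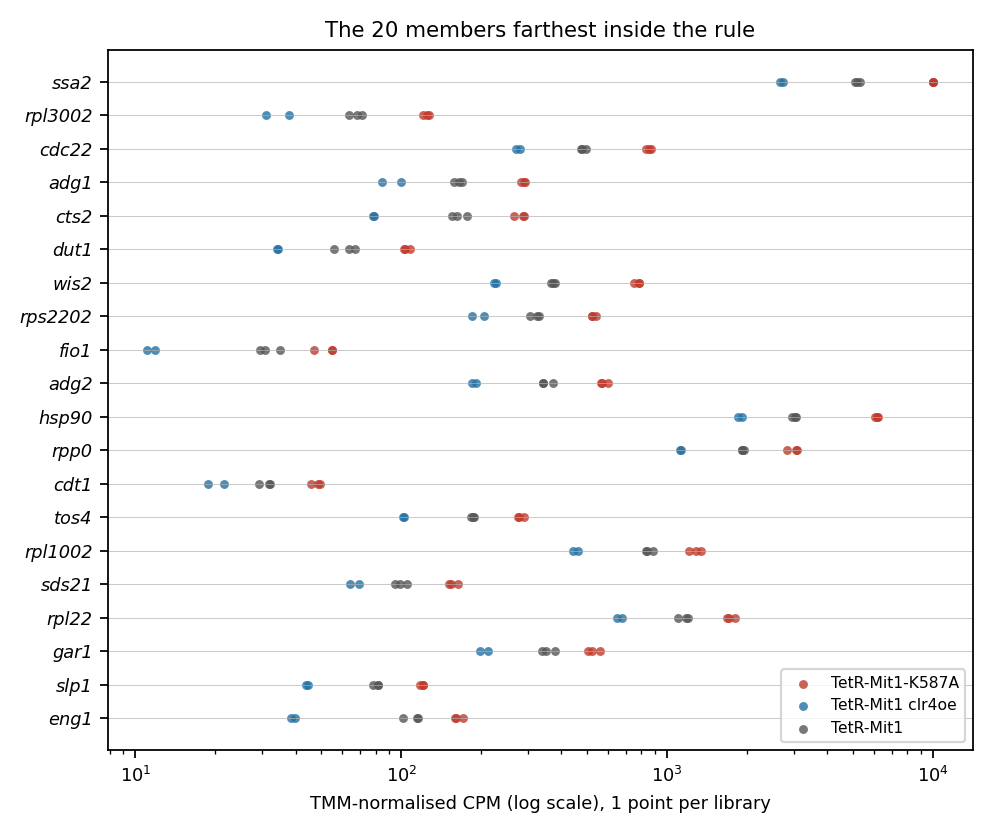
TMM-normalised CPM on a log axis in each library for the 20 genes farthest inside the rule, ordered from ssa2 at the top to eng1 at the bottom. In each row the 3 K587A points lie right of the 3 TetR-Mit1 points and the 2 clr4oe points left of them, from fio1 at 11.1 CPM in clr4oe to ssa2 at 10030.7 CPM in K587A.

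**Figure D4:**
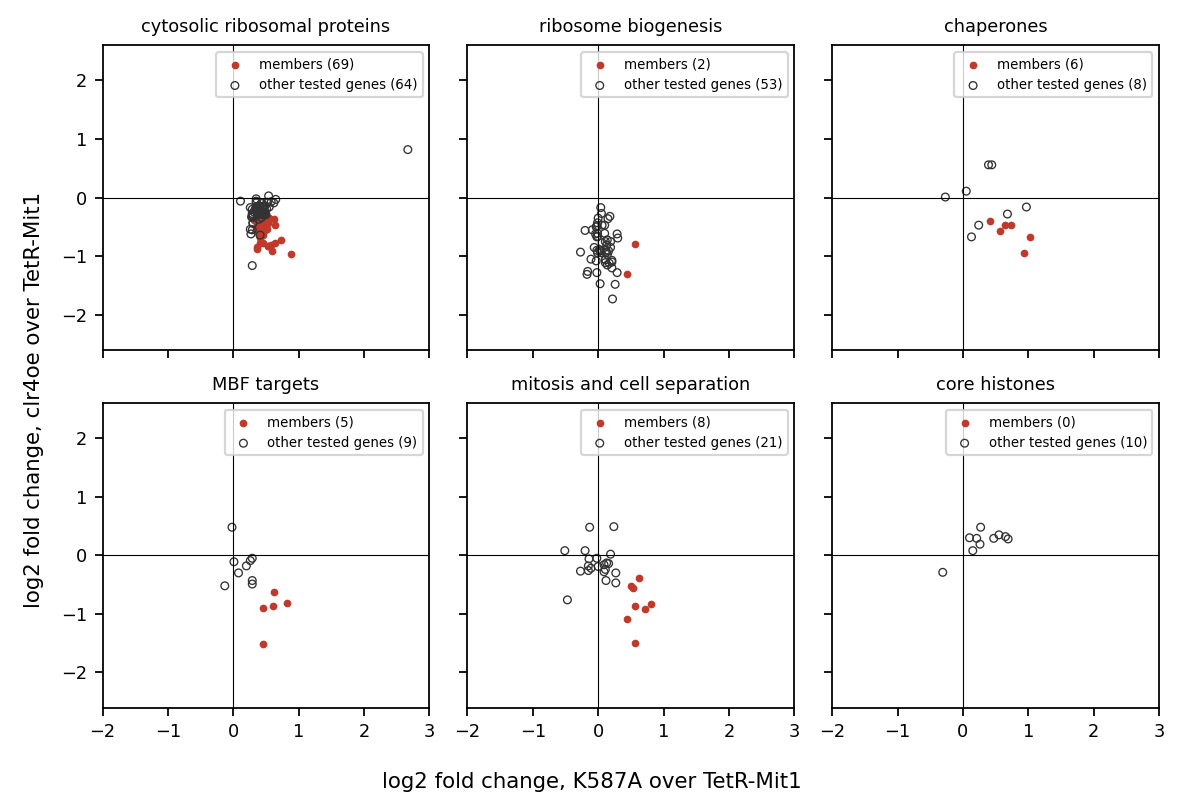
Log2 fold changes of K587A over TetR-Mit1 (x axis) and clr4oe over TetR-Mit1 (y axis) from edgeR for the tested genes of 6 lists, with genes of the set filled and the other genes open. The ribosomal protein genes outside the set lie beside those inside it, except rps1401 at 2.67 and 0.82, while the ribosome biogenesis genes spread downwards around a K587A median of 0.10.

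Single genes of other functions stood among the 20 farthest inside the rule. Fio1, the ferroxidase of high-affinity iron uptake, had 54.8, 46.8 and 55.1 CPM in K587A and 11.1 and 11.8 CPM in clr4oe, against 35.0, 29.3 and 30.8 CPM in TetR-Mit1. Its difference was -1.47 in clr4oe and 0.71 in K587A, and the groups did not overlap. The permease gene fip1, whose product works with Fio1, was at 0.26 ± 0.05 in K587A (adjusted p = 5.86e-05, edgeR) and -1.5 ± 0.06 in clr4oe (adjusted p = 1.19e-16, edgeR) and missed the rule in K587A. Of the other 12 tested iron uptake genes, K587A had 3 higher (27.3% of all tested genes) and 8 lower (25.0%), and clr4oe had 1 higher (32.1%) and 7 lower (33.0%). Sds21, a catalytic subunit of protein phosphatase 1, had 153.9, 150.8 and 162.8 CPM in K587A and 64.1 and 69.5 CPM in clr4oe, against 94.5, 98.6 and 104.7 CPM in TetR-Mit1. In the thiamine gene thi4 the differences were 0.43 and -0.58, and thi4 overlaps cdb4, also in the set. Among the genes with a clr4oe difference at or below -1 were also pfl3 (a cell-surface glycoprotein of the flocculin type, -1.40), SPBC215.06c (-1.43) and the ribosomal RNA processing genes rpf1 and mis3 (-1.05 each).

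The 44 genes placed in none of the groups above had median differences of 0.38 in K587A (0.31 to 0.64) and -0.44 in clr4oe (-1.43 to -0.31). Some act on chromatin and transcription. Among them mbf1, a transcriptional coactivator distinct from the MBF complex, had 408.1, 399.3 and 377.4 CPM in K587A and 179.7 and 177.2 CPM in clr4oe, against 280.7, 273.7 and 278.7 CPM in TetR-Mit1. Ams2, a GATA factor known to activate histone genes in S phase, had 104.0, 117.7 and 113.9 CPM in K587A and 65.9 and 67.9 CPM in clr4oe, against 83.6, 83.9 and 83.3 CPM in TetR-Mit1. The groups were apart in both, whereas the histone genes stood mostly above TetR-Mit1 in clr4oe, as given above. Abp2, which binds replication origins, had 153.5, 159.0 and 155.3 CPM in K587A and 70.6 and 70.6 CPM in clr4oe, against 115.5, 117.1 and 113.0 CPM in TetR-Mit1. Crm1, the receptor for nuclear export, had 214.4, 226.2 and 215.3 CPM in K587A and 133.4 and 129.7 CPM in clr4oe, against 167.6, 157.1 and 168.3 CPM in TetR-Mit1. Replicates were tight in these genes too. Further genes were med1 of the Mediator complex (0.38 and -0.47, overlapping tif5), spc19 of the DASH complex at the kinetochore (0.43 and -0.42), the tRNA-modifying enzymes trm9 (0.32 and -0.34) and tad2 (0.32 and -0.31), and the peroxisomal import receptor pex7 (0.49 and -0.65).

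Trs31, of the TRAPP tethering complex, was the exception named above and had low levels. It had 10.3, 15.9 and 13.5 CPM in K587A and 7.1 and 8.52 CPM in clr4oe, against 10.6, 10.0 and 10.6 CPM in TetR-Mit1. The lowest K587A library of trs31 fell among the TetR-Mit1 libraries.

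The last genes inside the rule were mcp60, hrp3 and rpl3802. The mitochondrial chaperonin mcp60 had 0.43 and -0.31, the chromodomain remodeler hrp3 had 0.42 and -0.31, and rpl3802 had 0.46 and -0.30 as differences in K587A and clr4oe. The nearest genes outside were rpl1201, SPAC56F8.12 and arv1, in each of which the smaller difference was 0.299. Values ran on across the threshold without a gap, and rpl1201 is itself a ribosomal protein gene.

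The set also differed in make-up from all genes past the floor. Its median transcript length was 1100 bases, against 1738.5 bases for all genes past the floor, and its median coding GC content was 44.4%, against 39.7%. Its median level per kilobase of transcript, taken from the same counts as the rule, was 545.6 CPM, against 46.2 CPM. The ribosomal protein genes carried these contrasts, with medians of 646.0 bases, 47.9% GC and 1525.5 CPM per kilobase. The 87 other genes had medians of 1805.0 bases, 40.9% GC and 71.7 CPM per kilobase. No intron was annotated in 55.1% of the set, against 51.0% of all genes past the floor. By chromosome the set took 78 genes of chromosome I (3.6% of its genes past the floor), 58 of chromosome II (3.26%) and 20 of chromosome III (2.29%).

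Neighbouring genes entered the set together in 22 pairs of 42 genes, of which 11 pairs overlap. Among pairs that do not overlap, slp1 and eng1 are transcribed away from each other, as are pss1 and tos4. In 9 cases a gene with another function overlaps a ribosomal protein gene, as mug165 does with rps2202, ptf2 with rps3 and ubp6 with rpl2401. The strand setting of the counting is not given in the sources used here, so the counts of such genes cannot be told apart from those of the ribosomal protein gene. Of all 156 genes 51 (32.7%) overlap another protein-coding gene, against 44.0% of genes past the floor.

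The 250 bases before the annotated start were searched on both strands for 13 short motifs, in all 156 genes and in 4814 genes past the floor. HomolD (CAGTCACA) was found in 39 of the 69 ribosomal protein genes of the set (56.5%), in 44 of the other 64 (68.8%) and in 2.76% of all genes. In the set it began 44 to 85 bases before the start, at a median of 52 bases. The related element HomolE (ACCCTACCC) was found in 26.1% of the ribosomal protein genes of the set and 34.4% of the others, against 1.35% of all genes. Both shares were lower inside the set than among the other ribosomal protein genes, and the difference was not tested.

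Elements of the smaller groups were found in the same windows. ACGCGT was present in 3 of the 5 MBF targets, 52 to 79 bases before the start, and in 2.58% of all genes. GAANNTTC was present in ssa2, hsp90, aha1, pss1 and sti1, which are 5 of the 6 chaperone genes, and in wis2, with 9.41% of all genes holding it. The Fep1-type sequence ATCTGATAA was present in fio1 and in 0.706% of all genes. CCAAT, in contrast, was present in 35.9% of the set and 35.3% of all genes. A match is a run of letters and does not show binding.

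**Figure D5:**
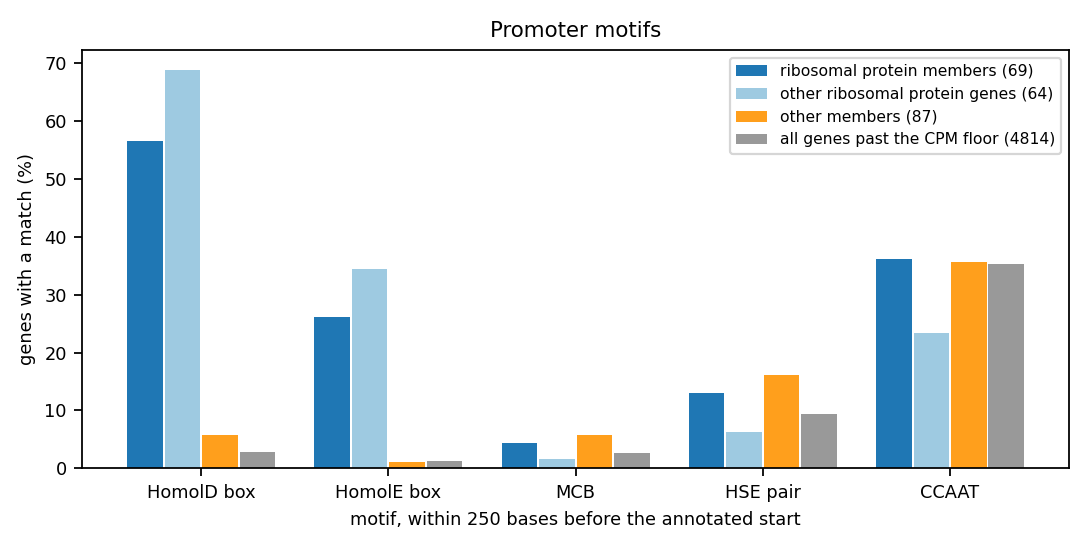
Share of genes (%) with at least 1 match on either strand to each of 5 motifs in the 250 bases before the annotated start, for 69 ribosomal protein genes of the set, 64 other ribosomal protein genes, the 87 other genes of the set and 4814 genes past the CPM floor. HomolD stands at 56.5% and 68.8% in the ribosomal protein genes and at 2.76% in all genes, while CCAAT stands at 35.3% in all genes.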

How the data were processed

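Polyadenylated RNA of 9 samples of 3 genotypes was sequenced, and 8 libraries are analysed here (the third clr4oe library is not). The deposited values are raw read counts per gene, with column names in the form written by STAR, per the file headers. The submitters' processing notes name STAR, SAMtools, DESeq2 and the build ASM294v2; versions, annotation and strand setting are not given in the sources used here. Symbols, gene models and the promoter stretches shown came from RefSeq ASM294v3, matched by gene ID (4906 matched, 9 did not); no coordinates are given because the builds differ. Promoter stretches lie before the annotated gene start.

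Membership used CPM from column sums. The medians subtracted were -0.144 (K587A) and -0.062 (clr4oe). Genes outside the set were tested with edgeR 4.0.16 in R 4.3.3 (filterByExpr, 4887 genes kept, TMM scaling, glmQLFit and glmQLFTest on all 8 libraries with genotype as the only factor, Benjamini-Hochberg adjustment over all tested genes, threshold 0.05). Standard errors are those of log2 fold changes. The fit was tested on simulated data. Alternatives were DESeq2 1.42.0, other scalings, filters and thresholds, a replicate block and the removal of each library. The genes and the 19 lists (493 of 518 symbols found) were chosen with earlier results of these data known. Genes named with values are the 20 farthest inside the rule (by the smaller difference), the 3 most abundant, the genes nearest the threshold and list genes; other examples were chosen after their values were seen. Coding identity was computed from pairwise alignments. Results for some genes and motifs are not reported here.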

Additional observations from a re-analysis of the deposited data

How the results depend on the processing

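The choice of genes depended on the settings of the rule. Without subtracting the medians 77 genes met it, of which 64 were among the 156. A threshold of 0.2 gave 318 genes and one of 0.5 gave 27. Without each library in turn 153 to 162 genes met it, and 118 of the 156 remained under every removal. Members that overlap no other protein-coding gene, an alternative added after the data were seen, numbered 105. The differences of the 24 members named by rule kept their direction under all 360 alternatives run. These members were chosen by the same differences in the same counts, so nothing is read from this. In the tests, 2557 genes passed in K587A (2269 to 2350 without each library) and 3179 in clr4oe (2795 to 3053). Genes of the fixed lists that passed numbered 400 in K587A (373 to 385) and 409 in clr4oe. These counts include genes of the set, which the rule chose on the same comparisons, so nothing is read from them. Removing a clr4oe library left 1, which was assumed to vary like the other groups. With the replicate number as a block, 2573 genes passed in K587A (2533 shared) and 3119 in clr4oe (3042 shared), and the labels do not pair the numbers. Same-numbered K587A and TetR-Mit1 libraries deviated with correlations of 0.113, -0.0621 and 0.106. List counts moved by over 1.5 times in 5 of 439 alternatives, among them ribosome biogenesis in K587A, with 18 genes without TetR-Mit1 replicate 1, against 28. Among the 133 ribosomal protein genes, 132 to 133 passed in K587A without each library. The rule chose 69 of these 133 on the same comparison, so nothing is read from this count. Library totals were 10367168 to 15920802 counts.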

Other observations

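Counts for the remaining lists come from edgeR's quasi-likelihood test at an adjusted p under 0.05. Among all tested genes 27.3% stood above and 25.0% below TetR-Mit1 in K587A, and 32.1% above and 33.0% below it in clr4oe. Of 18 core stress genes, 3 stood above and 13 below TetR-Mit1 in K587A, while 8 stood above and 4 below it in clr4oe. Among 59 amino acid synthesis genes, 15 stood above and 31 below TetR-Mit1 in K587A, while 33 stood above and 16 below it in clr4oe. The arginine gene arg12 was at -0.74 ± 0.03 in K587A and 1.24 ± 0.04 in clr4oe. The phosphate genes pho1, an acid phosphatase, and tgp1, a glycerophosphodiester transporter, fell in K587A (pho1 -1.15 ± 0.03, tgp1 -1.44 ± 0.07) and rose in clr4oe (pho1 1.36 ± 0.03, tgp1 1.41 ± 0.06). Of 10 tested phosphate and thiamine genes outside the set, 3 stood above and 4 below TetR-Mit1 in K587A, while 3 stood above and 5 below it in clr4oe. With so few genes nothing is read from these counts.

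Of 24 glycolysis and hexose transport genes, 12 stood above and 8 below TetR-Mit1 in K587A, while 18 stood above and 2 below it in clr4oe. Of 22 ergosterol genes, 10 stood above and 4 below TetR-Mit1 in K587A, while 18 stood above and 1 below it in clr4oe, where sre1, the sterol-sensing transcription factor, was at 1.81 ± 0.04. Of 25 genes of the TCA cycle and respiration, 5 stood above and 17 below TetR-Mit1 in K587A, while 9 stood above and 8 below it in clr4oe. Among 10 glucose-repressed genes 2 stood above and 7 below TetR-Mit1 in K587A, while 6 stood above and 2 below it in clr4oe. Of 12 purine synthesis genes, 4 stood above and 7 below TetR-Mit1 in K587A, while 5 stood above and 6 below it in clr4oe. Of 9 copper and zinc genes, 4 stood above and 4 below TetR-Mit1 in K587A, while 4 stood above and 2 below it in clr4oe. Nothing is read from the counts of so few copper and zinc genes. Of 28 genes of mating and nitrogen starvation, 2 stood above and 14 below TetR-Mit1 in K587A, while 10 stood above and 7 below it in clr4oe. Of the mating-type markers, 1 of 2 for P cells was higher in K587A and 1 of 5 for M cells was higher in clr4oe.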
